A study of Mus musculus with 6 samples.

Results

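Interferon-induced antiviral effector genes were described as a list of 46 gene symbols, chosen by name, in cultured mouse macrophages. Of these, 45 had rows in the authors' mRNA table, which holds 21912 gene symbols, and Mx2 had none. The 3 tested libraries are labelled M (M 1 to M 3) and the other 3 are labelled control (control 1 to control 3). The series is about ox-LDL, oxidised low-density lipoprotein, whose uptake turns macrophages into foam cells, but its labels name no treatment for M and mention ox-LDL in the extraction text of all 6 libraries. The groups are therefore called M and control here. The labels give no strain, tissue of origin, dose or time. No label names separate cultures either, so a p-value here weighs the group difference against differences among 3 libraries a group that could be technical. The unit is FPKM, fragments per kilobase of transcript scaled to the mapped fragments of the library, summed over the transcripts of a symbol.

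Interferons are secreted proteins that cells use to warn their neighbours of infection. Type I interferons (alpha and beta) act through the receptor chains IFNAR1 and IFNAR2 and transcription factors, IRF9 among them, that bind a DNA motif called the interferon-stimulated response element (ISRE). Interferon gamma, the type II interferon, acts through IFNGR1 and IFNGR2 and a DNA motif called the gamma-activated site (GAS). The genes switched on include RNA-binding proteins, nucleotide enzymes, membrane proteins and ubiquitin-like modifiers that block steps of viral growth. Interferon gamma also switches on large GTPases of the GBP and IRG families, which act on the vacuoles of intracellular microbes. Macrophages keep many of these genes at a basal level through weak interferon signalling.

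Promoter sequences are shown before the values, because the ISRE and the GAS are the letters through which the 2 kinds of interferon act on such genes. RefSeq promoters (build GRCm38.p6, 250 bases before to 50 after the start) were matched by symbol for 36 of the 46 members. The ISRE core, GAAA and GAAA with any 2 bases between them, was searched on both strands with overlaps allowed, and was found in the promoter of 17 of these 36 members (47.2%) and of 1079 of all 27025 genes with a promoter entry (3.99%). It was present in 11 of 29 type I responsive members (37.9%) and in 6 of 7 GTPases (85.7%). The GAS letters TTCNNNGAA, which read the same on both strands, were found in 11 of 36 members (30.6%), against 9.55% of all genes, in 8 of 29 type I responsive members and in 3 of 7 GTPases. A match is a run of letters, and binding was not measured.

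The windows below lie upstream of the RefSeq start, are written 5′ to 3′ on the strand of the gene, and carry each match in capitals. The first group is type I responsive: Isg15 (chr4:156200855-156200916, minus strand), Ifit1 (chr19:34640765-34640833, plus), Ifit3 (chr19:34583353-34583436, plus), Rsad2 (chr12:26456543-26456592, minus) and Bst2 (chr8:71537567-71537628, minus). Isg15 held 3 overlapping ISRE cores. In Bst2 a GAS match overlapped the first of 2 ISRE cores. TTTC and TTTC with 2 bases between them is the ISRE core read on the other strand.
Isg15: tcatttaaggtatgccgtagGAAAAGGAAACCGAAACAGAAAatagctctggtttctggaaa
Ifit1: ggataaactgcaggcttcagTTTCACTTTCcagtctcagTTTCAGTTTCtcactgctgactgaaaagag
Ifit3: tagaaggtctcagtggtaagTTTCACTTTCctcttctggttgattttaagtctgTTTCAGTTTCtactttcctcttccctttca
Rsad2: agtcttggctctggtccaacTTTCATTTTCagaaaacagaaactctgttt
Bst2: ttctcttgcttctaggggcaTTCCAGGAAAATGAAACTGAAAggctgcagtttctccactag

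The second group holds GTPases: Gbp2 (chr3:142620584-142620633, plus), Gbp7 (chr3:142530210-142530312, plus), Igtp (chr11:58199491-58199551, plus), Irgm2 (chr11:58214882-58214942, plus) and Irgm1 (chr11:48871421-48871470, minus). Gbp7, Igtp and Irgm2 carried both motifs. Igtp and Irgm2 are neighbouring genes, and 48 of the 50 bases around their ISRE core were identical.
Gbp2: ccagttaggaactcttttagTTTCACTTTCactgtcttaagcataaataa
Gbp7: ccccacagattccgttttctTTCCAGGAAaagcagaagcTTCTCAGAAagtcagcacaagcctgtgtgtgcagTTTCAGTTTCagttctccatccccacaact
Igtp: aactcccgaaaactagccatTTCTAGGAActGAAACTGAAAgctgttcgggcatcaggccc
Irgm2: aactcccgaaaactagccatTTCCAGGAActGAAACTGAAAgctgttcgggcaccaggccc
Irgm1: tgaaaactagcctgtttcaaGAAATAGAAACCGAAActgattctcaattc
Ifitm2 (chr7:140955978-140956027, minus) is shown because it was the only tested member called higher in M, and it carries 1 ISRE core too.
Ifitm2: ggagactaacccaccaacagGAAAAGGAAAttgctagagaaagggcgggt

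In the M libraries the members were lower nearly throughout. Of 38 members that averaged at least 1 FPKM and were tested, 35 were called lower in M, against 21.9% of all 10390 tested genes, and 1 was called higher, against 21.2% (43.1% in either direction). A call is an adjusted p under 0.05 from limma, fitted on log2(FPKM + 1) over the whole table. At least a 2-fold fall was called for 12 of the 38 members, against 1.03% of all tested genes, and 12 members were among the 100 genes with the lowest log2 fold change. Rsad2 and Isg20 passed the filter only through the control group, so their lower level in M followed from the filter. Each log2 fold change below is the M mean minus the control mean of log2(FPKM + 1), and the added 1 shrinks the change of genes at low FPKM. With no filter, 39 of the 45 members with rows were called lower, against 15.3% of 14796 genes.

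The members' median log2 fold change was -0.86, and that of all tested genes was -0.01. Over the 45 members with rows, every M library lay below every control library in 42, against 21.8% of the genes with any value above 0. Bulk RNA cannot tell fewer cells of a type from less RNA per cell.

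**Figure D1:**
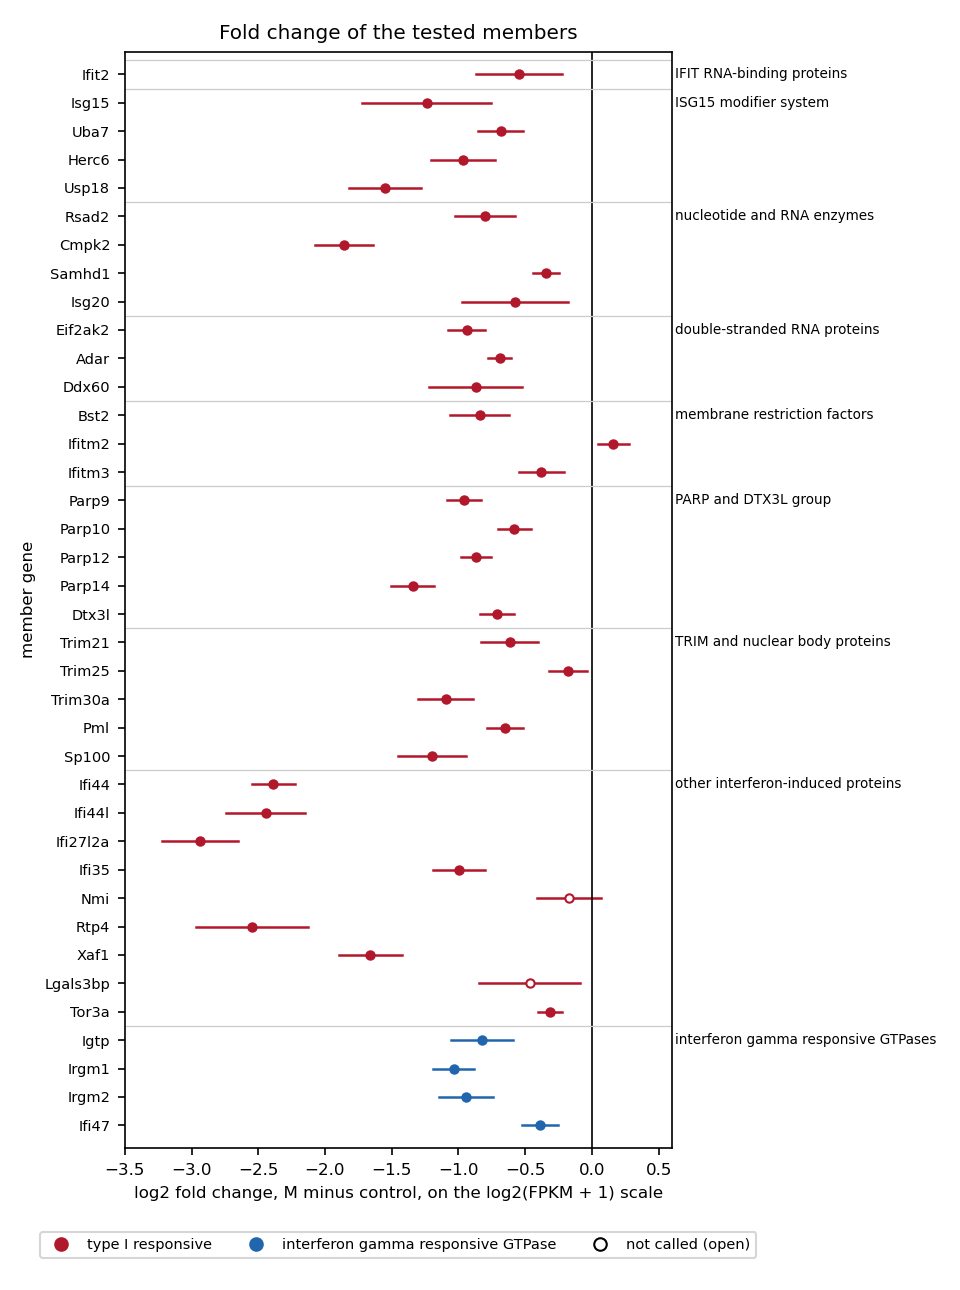
Log2 fold change (M minus control, on the log2(FPKM + 1) scale, horizontal axis) of the 38 tested members, in rows by role, with 95% confidence intervals from limma (n = 3 libraries a group). All points but Ifitm2 lie below 0, and the open points, Nmi and Lgals3bp, were not called.

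Library sums ran between 375467 and 390581 FPKM, and FPKM carry no read counts, so depth is unknown. Pearson's r over the tested genes was 0.990 to 0.993 within a group and 0.961 to 0.968 between groups. The macrophage label was checked against 9 markers. Lyz2 (lysozyme) had 6132, 5874 and 6203 FPKM in M 1 to M 3, against 4401, 4631 and 4799 FPKM in control 1 to control 3, and Csf1r, Cd68, Spi1 and Adgre1 were at 50.6 FPKM or more in every library, while Mertk stayed between 0.0629 and 0.184 FPKM. Of 8 macrophage markers tested, 4 were called higher in M, against 21.2% of all tested genes, and 1, Mpeg1, lower, against 21.9%. Markers of plasmacytoid dendritic cells, which make much interferon, moved with the members in part. Of 9 such markers, 3 (Klk1, Ly6d and Cd209d) were listed at 0 in all libraries. Among the markers with any value above 0, 3 had every M library below every control library, against 21.8% of all such genes. The sum over the 9 was 48.1 to 49.3 FPKM in M and 56.7 to 60.3 FPKM in control libraries. Most of it was Tcf4 (mean 29.7 FPKM in M, 34.9 in control) and Cox6a2 (18.7 and 21.7). Cox6a2 overlapped between groups and was not called. The defining marker Siglech had 0.198, 0.171 and 0.147 FPKM in M libraries, against 1.24, 1.57 and 0.777 FPKM in control libraries, and Ccr9 did not exceed 0.0123 FPKM in any library. The part of these cells in the results was not tested.

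The libraries of a group were alike. The median relative SD of the tested members was 6.72% in M and 9.34% in control. Control 3 held the highest control value for 31 of the 38 tested members, so the control libraries did not sit at exactly the same level. Summed over the type I responsive members, the level was 963, 953 and 963 FPKM in M 1 to M 3, against 1566, 1436 and 1698 FPKM in control 1 to control 3. Leaving out control 3 left 34 members called lower and 1 called higher.

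**Figure D2:**
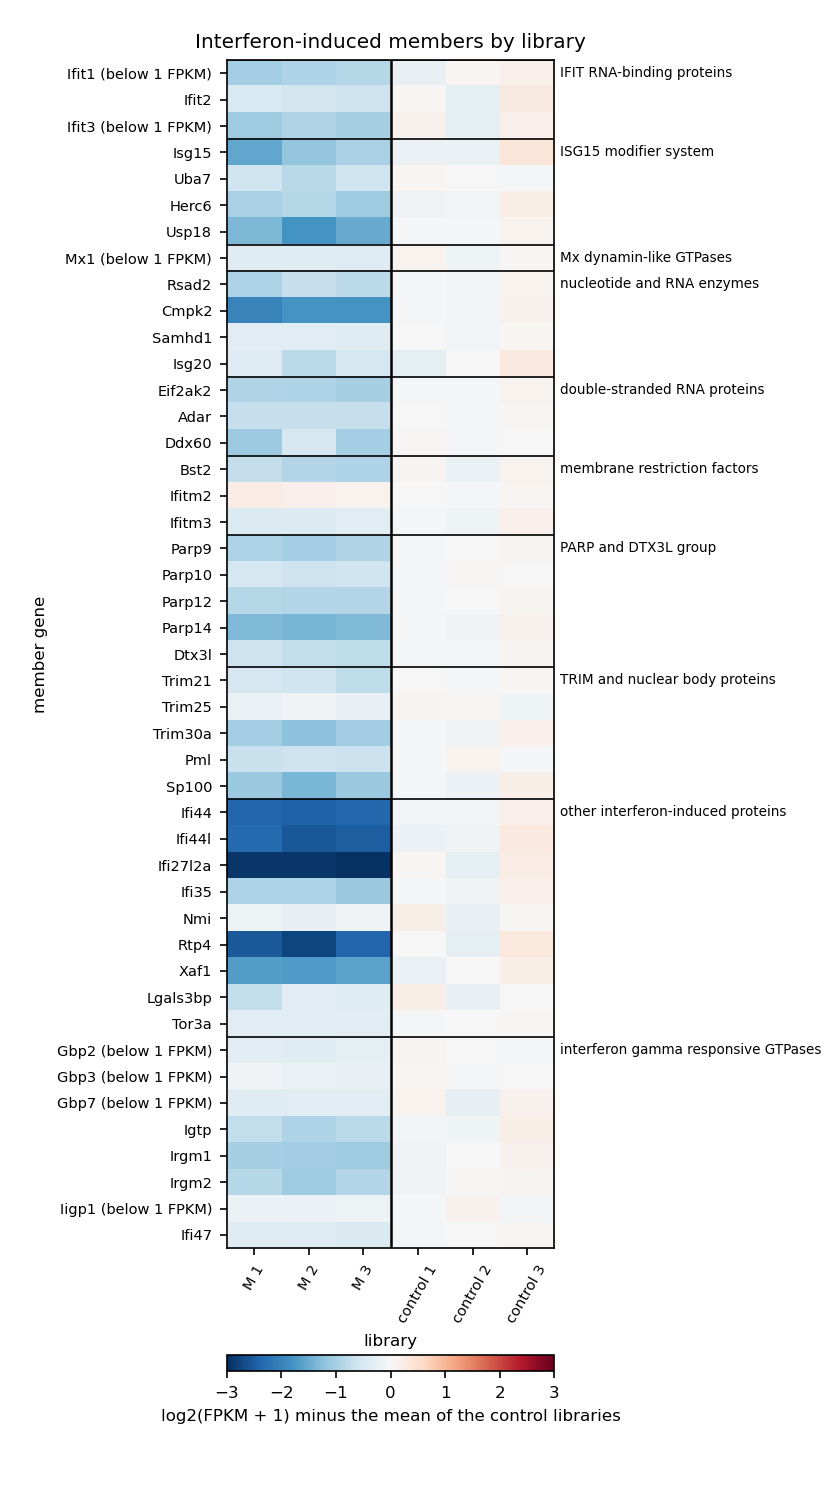
Colour gives log2(FPKM + 1) minus the mean of the 3 control libraries for each of the 45 members with rows (down the page, by role) in each library (M left, control right). The M columns are blue for nearly every member, and the rows marked as below 1 FPKM were not tested.

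The IFIT proteins bind foreign RNA that lacks the host cap marks and block its translation. Ifit1 (ENSMUSG00000034459) had 0.189, 0.276 and 0.326 FPKM in M libraries, against 1.09, 1.53 and 1.67 FPKM in control libraries. Ifit3 (ENSMUSG00000074896), its partner, had 0.215, 0.356 and 0.268 FPKM in M libraries, against 1.77, 1.09 and 1.83 FPKM in control libraries. Neither averaged 1 FPKM, so they were not tested, but the groups did not overlap in either gene and the M means stood at 18.4% and 17.9% of the control means. Ifit2 (ENSMUSG00000045932) was more abundant and fell less, with 4.07, 3.76 and 3.53 FPKM in M libraries, against 6.11, 4.67 and 7.41 FPKM in control libraries. Its log2 fold change was -0.54 ± 0.138 (SE; limma adjusted p = 0.0158), and the call was lost without M 3 (adjusted p = 0.0580) or control 1 (0.0525).

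ISG15 is a ubiquitin-like protein that is joined to other proteins by the activating enzyme UBA7 and ligases such as HERC6, and removed by the protease USP18, which also restrains the type I receptor. All 4 genes fell. Usp18 (ENSMUSG00000030107) had 10.7, 7.56 and 9.40 FPKM in M libraries, against 27.3, 28.0 and 30.8 FPKM in control libraries (log2 fold change -1.55 ± 0.113 SE, limma adjusted p = 5.92e-05). Isg15 (ENSMUSG00000035692) had 1.11, 1.72 and 2.14 FPKM in M libraries, against 4.50, 4.36 and 6.98 FPKM in control libraries (-1.24 ± 0.202, 0.00297). In both genes the highest M library was below the lowest control library. Herc6 averaged 1.39 ± 0.169 FPKM in M and 3.67 ± 0.544 FPKM in control (SD, n = 3 each). Uba7 (ENSMUSG00000032596) changed least of the 4, with 11.8, 9.82 and 11.8 FPKM in M libraries, against 19.1, 18.3 and 17.8 FPKM in control libraries (-0.68 ± 0.0728, 2.21e-04). The modifier and its remover thus stood at 31.3% and 32.1% of control, and the activating enzyme at 60.4%.

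Among the Mx proteins, dynamin-like GTPases that trap viral nucleoproteins, Mx1 (ENSMUSG00000000386) was scarce in both groups, at 0.0625, 0.0580 and 0.0406 FPKM in M libraries and 0.466, 0.243 and 0.413 FPKM in control libraries. It was below the filter, its groups did not overlap, and its M mean was 14.4% of control. Many laboratory mouse strains carry a non-functional Mx1.

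The enzymes that act on nucleotides or RNA fell by unequal amounts. Cmpk2 (ENSMUSG00000020638), a mitochondrial nucleotide kinase, had 0.997, 1.31 and 1.30 FPKM in M libraries, against 6.67, 6.53 and 7.75 FPKM in control libraries (log2 fold change -1.86 ± 0.0926 SE, limma adjusted p = 6.18e-06). Its neighbour Rsad2 (viperin, which makes a chain-terminating nucleotide) had 0.746, 1.07 and 0.951 FPKM in M libraries, against 2.27, 2.17 and 2.58 FPKM in control libraries (-0.80 ± 0.0964, 4.21e-04). The M means were 17.2% and 39.4% of control, with no overlap in either. Samhd1 (ENSMUSG00000027639), which degrades deoxynucleotides, was the most abundant of the 4 and changed least, with 53.6, 53.8 and 52.4 FPKM in M libraries, against 68.8, 64.6 and 70.4 FPKM in control libraries (-0.34 ± 0.0421, 4.50e-04). Isg20, an RNA exonuclease, averaged 0.949 ± 0.279 FPKM in M and 1.92 ± 0.593 FPKM in control (SD, n = 3 each; adjusted p = 0.0277). The Isg20 call was lost without M 2 (adjusted p = 0.0832), M 3 (0.0648), control 2 (0.0657) or control 3 (0.0739), and with no filter (0.0532).

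Of the proteins that meet double-stranded RNA, Eif2ak2 (PKR, the kinase that stops translation; ENSMUSG00000024079) had 11.3, 11.2 and 10.6 FPKM in M libraries, against 21.4, 20.9 and 23.9 FPKM in control libraries (log2 fold change -0.94 ± 0.0597 SE, limma adjusted p = 1.84e-05). Adar (the adenosine-to-inosine RNA editor; ENSMUSG00000027951) had 21.5, 21.8 and 21.8 FPKM in M libraries, against 35.7, 34.7 and 36.4 FPKM in control libraries (-0.69 ± 0.0374, 9.14e-06). The libraries of each group lay close together in both genes, and the groups did not overlap. The helicase Ddx60 averaged 1.93 ± 0.682 FPKM in M and 4.28 ± 0.108 FPKM in control (adjusted p = 0.00262), with M 2 the highest M library at 2.72 FPKM.

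The membrane proteins moved in both directions, and they included Ifitm3 and Ifitm2, the members with the highest mean FPKM. Bst2 (tetherin, which holds budding virions at the cell surface; ENSMUSG00000046718) had 59.6, 53.0 and 51.0 FPKM in M libraries, against 103, 85.9 and 107 FPKM in control libraries (log2 fold change -0.84 ± 0.0935 SE, limma adjusted p = 4.34e-04). Ifitm3 (ENSMUSG00000025492), which blocks fusion of viruses in endosomes, had 297, 296 and 315 FPKM in M libraries, against 388, 361 and 439 FPKM in control libraries (-0.38 ± 0.0724, 0.00400). Its close relative Ifitm2 (ENSMUSG00000060591) had 198, 186 and 181 FPKM in M libraries, against 168, 161 and 176 FPKM in control libraries. This was the only rise called among the members, by 0.16 ± 0.0513 on the log2 scale (adjusted p = 0.0360), and the M and control libraries were only narrowly apart. The Ifitm2 call was lost without M 1 (adjusted p = 0.0995), M 2 (0.0803), control 1 (0.0903) or control 2 (0.0904), and with no filter (0.0557). The labels do not say how reads shared by these 2 related genes were assigned.

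**Figure D3:**
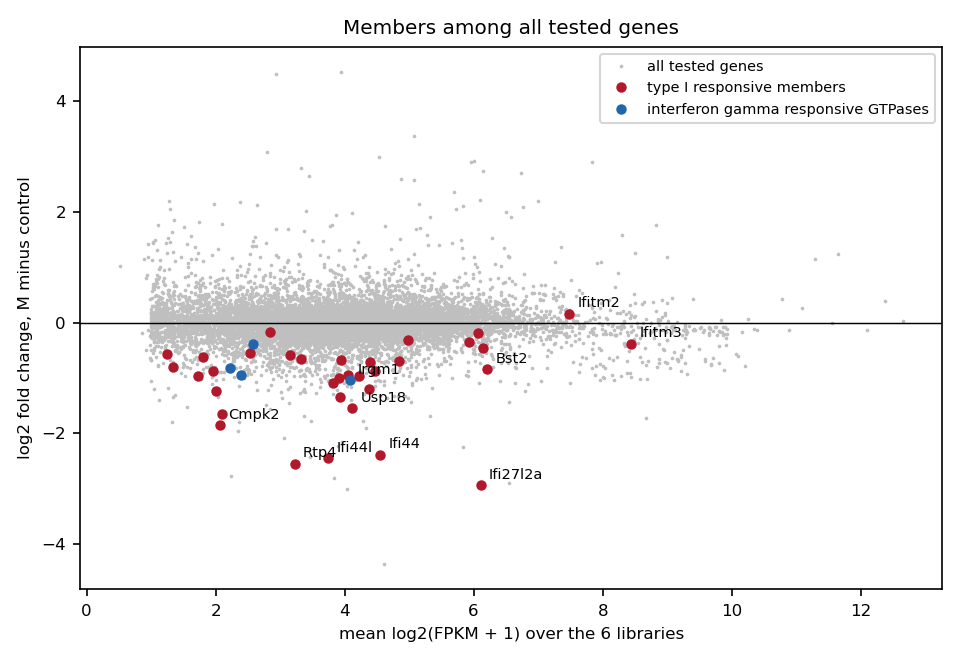
Each grey point is 1 of the 10390 tested genes, by mean log2(FPKM + 1) over the 6 libraries (horizontal) and log2 fold change, M minus control (vertical), with type I responsive members in red and GTPases in blue. All members shown lie below 0 but Ifitm2, which lies just above it, and the abundant Ifitm3 lies nearer to 0 than most of the others.

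PARP9 and DTX3L form a complex of an ADP-ribosyltransferase relative with a ubiquitin ligase, and PARP10, PARP12 and PARP14 add ADP-ribose to proteins. All 5 genes fell. Parp14 (ENSMUSG00000034422) had 8.73, 8.19 and 8.75 FPKM in M libraries, against 22.8, 21.4 and 25.7 FPKM in control libraries (log2 fold change -1.34 ± 0.0695 SE, limma adjusted p = 7.30e-06). The complex partners had log2 fold changes of -0.96 (Parp9, 49.6% of control) and -0.71 (Dtx3l, 59.5% of control). Parp12 (ENSMUSG00000038507), the most abundant by mean level, had 15.7, 15.4 and 15.2 FPKM in M libraries, against 27.7, 28.7 and 30.8 FPKM in control libraries (-0.87 ± 0.0486, 1.04e-05). Parp10 (ENSMUSG00000063268) changed least, with 6.62, 6.07 and 6.22 FPKM in M libraries, against 9.64, 10.2 and 9.90 FPKM in control libraries (-0.58 ± 0.0544, 1.12e-04).

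TRIM proteins are ubiquitin ligases, and PML and SP100 build nuclear bodies that silence viral genomes. Sp100 (ENSMUSG00000026222) had 13.6, 11.2 and 13.7 FPKM in M libraries, against 30.1, 27.1 and 35.1 FPKM in control libraries (log2 fold change -1.20 ± 0.109 SE, limma adjusted p = 1.62e-04). Trim30a followed at -1.10, then Pml at -0.65 and the antibody-binding Trim21 at -0.62, all called. Trim25 (ENSMUSG00000000275), which acts on the RNA sensor RIG-I, was the most abundant of the 5 and barely moved, with 60.4, 65.5 and 59.5 FPKM in M libraries, against 73.7, 72.3 and 64.3 FPKM in control libraries. M 2 was above control 3, so its groups overlapped, and the log2 fold change of -0.18 ± 0.0617 sat at the threshold (adjusted p = 0.0491). The Trim25 call was lost without M 1 (adjusted p = 0.121), M 3 (0.140), control 1 (0.146) or control 2 (0.123), and with no filter (0.0865).

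The remaining interferon-induced proteins held both the deepest log2 falls among the tested members and the members that were not called. Ifi27l2a (ENSMUSG00000079017) had 24.2, 24.4 and 23.4 FPKM in M libraries, against 197, 157 and 221 FPKM in control libraries, which is 12.5% of control (log2 fold change -2.93 ± 0.118 SE, limma adjusted p = 1.01e-05). Its M libraries were nearly equal, while its control libraries spread widely, with control 2 the lowest and still far above every M library. Rtp4 (13.1% of control), Ifi44l (15.5%), Ifi44 (17.5%) and Xaf1 (21.2%) came next, with no overlap between groups in any. Ifi35 fell by 0.99 on the log2 scale, and its binding partner Nmi (ENSMUSG00000026946) had 5.80, 5.39 and 6.12 FPKM in M libraries, against 7.63, 5.54 and 6.79 FPKM in control libraries. Nmi overlapped between groups and was not called (-0.17 ± 0.103 SE, limma adjusted p = 0.223), although it was without control 2 (0.0324). The secreted glycoprotein gene Lgals3bp (ENSMUSG00000033880) had 49.2, 66.3 and 63.7 FPKM in M libraries, against 94.6, 70.4 and 83.6 FPKM in control libraries, with every M library below every control library. It just missed the threshold (-0.47 ± 0.153, 0.0537) and passed it without control 2 (0.0337) and with quantile normalization (0.0352). Tor3a, a torsin-family ATPase, fell by 0.31.

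The GTPases that respond more to interferon gamma were lower as well. IRGM1, IRGM2 and IGTP are regulatory members of the IRG family that guard the cell's own membranes, IIGP1 and IFI47 are of its effector type, and the GBP proteins coat the vacuoles of microbes. Irgm1 (ENSMUSG00000046879), the most abundant, had 11.1, 10.8 and 10.5 FPKM in M libraries, against 21.3, 23.0 and 25.5 FPKM in control libraries (log2 fold change -1.04 ± 0.0661 SE, limma adjusted p = 1.86e-05). Its relatives Irgm2 (-0.94) and Igtp (-0.82) also fell. Ifi47 (ENSMUSG00000078920) changed least, with 4.35, 4.26 and 4.08 FPKM in M libraries, against 5.63, 5.90 and 5.99 FPKM in control libraries (-0.39 ± 0.0582, 0.00127). The other 4 GTPases were below the filter. Gbp2 (ENSMUSG00000028270) had 0.0352, 0 and 0.0626 FPKM in M libraries, against 0.355, 0.274 and 0.245 FPKM in control libraries. Gbp7 had 0.118, 0.136 and 0.147 FPKM in M libraries, against 0.530, 0.216 and 0.576 FPKM in control libraries. Gbp3 and Iigp1 reached at most 0.243 and 0.225 FPKM in any library, and Iigp1 was listed at 0 in M 1 and M 2. In all 8 every M library lay below every control library, against 21.8% of the genes with any value above 0.

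Set side by side, the tested members of the 2 classes had nearly the same median, but this did not hold when members below the filter were added. The median was -0.86 on the log2 scale over the 34 tested type I responsive members and -0.88 over the 4 tested GTPases, a difference of 0.03, less than the pooled SD of this difference between libraries of a group (0.0923). That SD is a spread among libraries and does not measure the spread over genes, which ran between -1.04 and -0.39 for the 4 GTPases. With no filter, 37 type I responsive members had a median of -0.87 and all 8 GTPases one of -0.36, the 4 added GTPases each averaging under 1 FPKM. As a ratio of mean FPKM, which has no pseudocount, the M level was a median of 49.3% of control over 37 type I responsive members and 37.4% over all 8 GTPases. The type I responsive members ranged between 12.5% and 111.9% and the GTPases between 3.84% and 72.4%. Below 25% of control lay 9 of the 37 type I responsive members and 2 of the 8 GTPases, Gbp2 (11.2%) and Iigp1 (3.84%), each with M libraries listed at 0. Over the 6 GTPases with no library at 0 the median was 45.4%, a choice of genes that the fall itself decides. The control level was a median of 22.0 FPKM in the type I responsive class and 2.85 FPKM among the GTPases. Members were chosen by name with earlier results known, so no test was made of the classes.

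**Figure D4:**
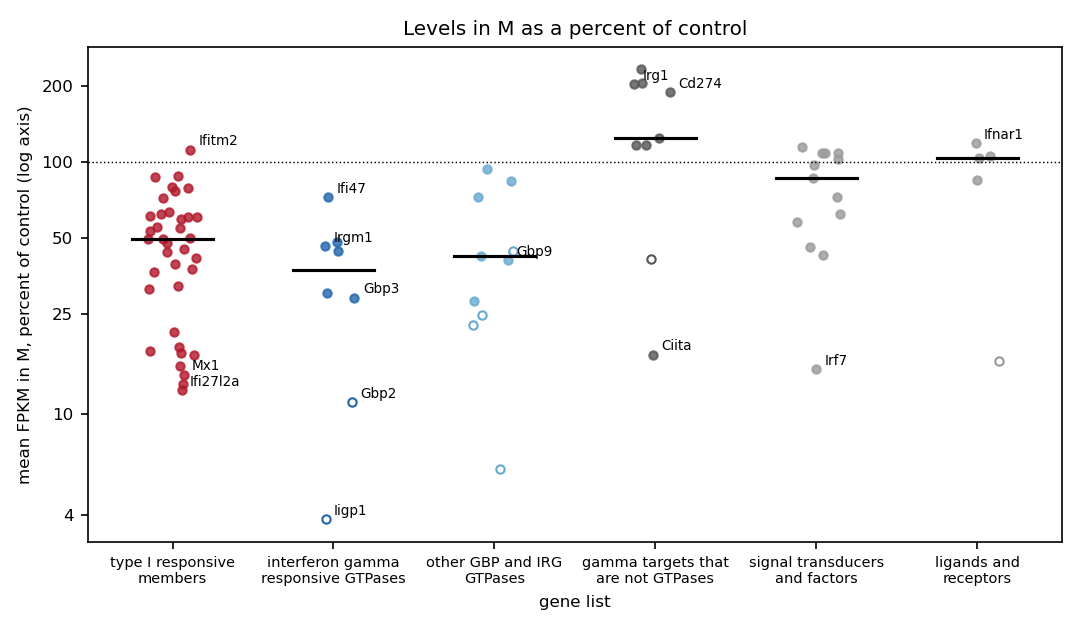
Mean FPKM in M as a percent of the control mean (vertical, log axis) for each gene with both means above 0, by list (horizontal), with bars at list medians and open points for genes with a library listed at 0. The medians are 49.3% for type I responsive members, 37.4% for the GTPases and 42.4% for other GBP and IRG genes, while most interferon gamma targets that are not GTPases lie above 100%.

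GTPases outside the members behaved alike in part. Of 13 other GBP and IRG genes, 12 had rows and 4 were tested, of which 3 were called lower, against 21.9% of all tested genes. Gbp9 had 0.811, 0.940 and 1.08 FPKM in M libraries, against 2.24, 2.24 and 2.47 FPKM in control libraries (log2 fold change -0.77, limma adjusted p = 2.78e-04). It averaged 0.944 FPKM in M and passed the filter only through the control group, so its lower level in M followed from the filter. Gvin1 (-0.42) and Gbp8 (-0.22) fell less, and Irgq was not called. The Gbp8 call (limma adjusted p = 0.0441) was lost with no filter (0.0705). The tested targets of interferon gamma that are not GTPases went the other way. Of 12 such genes, all with rows, 5 were tested and all 5 were called higher, against 21.2% of all tested genes. The groups overlapped in Fcgr1. Irg1 (now named Acod1), which makes itaconate, had 6.61, 6.86 and 5.51 FPKM in M libraries, against 2.66, 2.95 and 3.71 FPKM in control libraries (0.84, 7.25e-04). The checkpoint ligand Cd274 rose by 0.76 and the tryptophan tRNA ligase Wars by 0.31. Several of these genes also respond to inflammatory signals other than interferon. Ciita, the regulator of class II antigen presentation, was below the filter, at 0.0524, 0.0796 and 0.0780 FPKM in M libraries and 0.309, 0.551 and 0.359 FPKM in control libraries.

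Genes upstream of the members were split by their place in the pathway. Ifna1, Ifna2, Ifna4 and Ifng were listed at 0 in all libraries, and Ifnb1 was listed above 0 in M 1, M 2 and control 3, at 0.0149, 0.0203 and 0.217 FPKM. Of the 4 receptor chains, Ifnar1 rose (log2 fold change 0.24, limma adjusted p = 0.00220), Ifngr1 fell (-0.23, 0.00290) and Ifnar2 and Ifngr2 were not called. Of 12 tested transducers and factors, 7 were called lower, against 21.9% of all tested genes, and 2 higher, against 21.2%. Irf7, which amplifies the type I response and is itself induced by it, had 3.86, 3.60 and 3.79 FPKM in M libraries, against 21.2, 23.9 and 29.7 FPKM in control libraries. Irf9, which binds the ISRE, fell by 1.16 on the log2 scale, and Stat2 fell by 0.72. Also called lower were Socs3 (log2 fold change -0.57), Irf1 (-0.44) and Irf8 (-0.20). The kinases Jak1 and Jak2 rose by 0.12 and 0.18, and Irf3 and Irf5 were not called.

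The size of the fall was set beside the promoter letters. The median log2 fold change was -0.86 over 12 tested members with an ISRE core in the window (-1.24 to 0.16) and -0.69 over 19 without one (-2.44 to -0.17). Ifi44, Ifi44l, Cmpk2 and Xaf1, all among the deepest falls, had no ISRE core letters within this window, and Ifitm2, which rose, had 1. The 7 tested members with no promoter entry had a median of -1.34.

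Members that are next-door neighbours among protein-coding genes of the RefSeq annotation made up 7 pairs of 13 genes. In all 7 both genes had every M library below every control library, but not by equal amounts. The same held for 42 of the 45 members with rows, and for 21.8% of the genes with any value above 0. Ifi44 and Ifi44l stood at 17.5% and 15.5% of control, and Gbp7 and Gbp3 at 30.3% and 29.0%. Igtp and Irgm2, with near-identical promoter windows, stood at 48.0% and 44.4%. Ifit2 and Ifit3 differed most, at 62.4% and 17.9% of control, and Rsad2 and Cmpk2 at 39.4% and 17.2%.

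The members have 106 transcripts in the table, of which 62 averaged at least 1 FPKM and were tested one by one against all 16851 such transcripts. Of the 62, 38 were called lower, against 9.56% of all transcripts, and 0 were called higher, against 9.18%, while 24 were not called and 4 of the 62 had a positive log2 fold change. Some lower calls passed the filter only through the control group, so their lower level in M followed from the filter. These were the Rsad2 transcript, ENSMUST00000147552 and ENSMUST00000153574 of Sp100, and ENSMUST00000146233 and ENSMUST00000151440 of Xaf1. Among the 26 members with a single tested transcript, 22 of 26 transcripts were called lower, and among the 12 members with several, 16 of 36 were.

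Gene totals were steadier than the transcripts that make them up. The transcript of Lgals3bp with the second highest mean (ENSMUST00000144529) had 0, 44.5 and 41.0 FPKM in M libraries, against 62.5, 2.68 and 3.62 FPKM in control libraries. Its most abundant transcript (ENSMUST00000043722) had 47.7, 20.4 and 20.2 FPKM in M libraries, against 28.4, 64.1 and 76.7 FPKM in control libraries. Where one was high the other was low, within both groups. The lower-mean Parp10 transcript (ENSMUST00000075689) had 3.79, 3.78 and 0.615 FPKM in M libraries, against 0.937, 2.05 and 0.893 FPKM in control libraries. M 3 thus stood apart from M 1 and M 2. This transcript made up 57.2% and 62.2% of the gene total in M 1 and M 2, and 9.90% in M 3. In control libraries it made up 9.02% to 20.1%. For Adar, whose long interferon-induced and short constitutive forms come from different starts, the most abundant transcript (ENSMUST00000107405) fell (log2 fold change -0.71, limma adjusted p = 0.0478) and the next (ENSMUST00000098924) was not called (-0.67, 0.243). The table does not say which of them encodes which form.

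**Figure D5:**
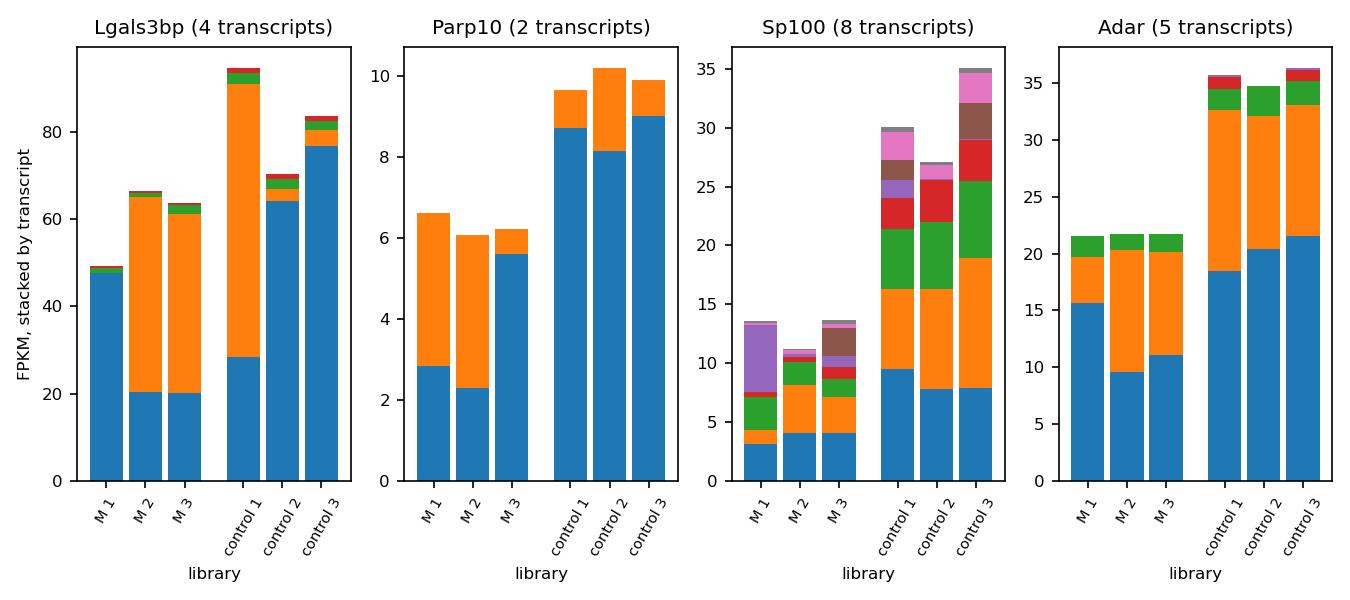
FPKM stacked by transcript (colours, most abundant at the bottom) for Lgals3bp, Parp10, Sp100 and Adar in each library, M left and control right. Bar heights are alike within a group for Parp10, Sp100 and Adar and less so for Lgals3bp. The shares of single transcripts vary between libraries of the same group.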

How the data were processed

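RNA of 6 libraries of mouse macrophages was sequenced after TruSeq library preparation, per the labels' protocols. The authors deposited FPKM per transcript, on genome build mm9 (submitters' processing notes). No label names the aligner, the quantifier or the annotation. Read depth is unknown, so no counting interval was derived. FPKM were summed per symbol, symbols averaging 1 FPKM or more were kept (10390), and log2(FPKM + 1) entered limma 3.58.1 under R 4.3.3. The model held only the group, with a trended, robust empirical Bayes variance. P-values were two-sided and Benjamini-Hochberg adjusted across every gene in the fit. The fit was tested on simulated data. Transcripts were fitted likewise. Exact permutation of 3 libraries against 3 cannot go below p = 0.1 and was not used. Promoter sequences are from RefSeq, build GRCm38.p6. Alternatives were a replicate block, 2 other pseudocounts, 2 other filters, 2 scalings, a threshold of 0.01, the most abundant transcript and leaving out each library. The members and lists were chosen with earlier results of these data known. Values in every library are given for the tested members with the lowest and highest log2 fold change and the highest mean of each of 10 role lists, and for members called higher or against their list. Others given in full were chosen after their values were seen. The lncRNA table was not used, Mx2 was not analysed here, and 1 gene of the pathway lists is not reported here.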

Additional observations from a re-analysis of the deposited data

How the results depend on the processing

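The count of members called lower was 32 at an adjusted p under 0.01, 39 of 45 with no filter, 24 of 27 at a mean of at least 5 FPKM, and 33 to 36 under the other alternatives. Over 38 tested members, 530 member values kept direction and call, 26 lost the call, 3 gained it and 0 changed sign. The single member called higher, Ifitm2, was 0 with no filter, with the replicate block (adjusted p = 0.0587), at an adjusted p under 0.01 and with the most abundant transcript, and 0 to 1 when each library was left out. The count of all genes called was 2907 at an adjusted p under 0.01, against 4480. The pseudocount set the size of the falls: with 0.1, 19 members were called at 2-fold and the medians were -0.97 (type I responsive) and -1.06 (GTPases), and with 5 these were 7, -0.60 and -0.49, a difference of -0.11. The GTPase median was -0.36 with no filter and -0.71 at a mean of at least 5 FPKM, with differences of -0.51 and -0.13. Member transcripts called lower numbered 24 at a mean of at least 5 FPKM, against 38. With the replicate block 35 members were called lower, as without it. Libraries with the same number did not deviate together (r = 0.0664, 0.00520 and -0.0347 over genes), so the numbers were not read as pairs. No scaling moved the median of all genes by over 0.1. FPKM without counts leave the precision of genes below 1 FPKM unknown.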
